A study of Mus musculus with 4 samples.

Results

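The Ms4a genes were followed in mouse prostate on 2-colour Agilent arrays, by taking every probe that is not a control and carries one of 10 gene names: Ms4a1, Ms4a2, Ms4a4b, Ms4a4c, Ms4a4d, Ms4a5, Ms4a6b, Ms4a6c, Ms4a6d and Ms4a7. They are 10 of 27962 gene names on the array and had 17 of the 41174 probes, each printed as 1 spot per array. The family was picked by the measured ratio of Ms4a5, far below a wild-type pool in all 4 mice, so every ratio to the pool given here is a description. For the members, the difference between the genotypes is the test given.

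Mice of 2 genotypes were profiled, each in 2 mice aged 60 days on a mixed C57BL/6:129/SVJae:FVB background, with no treatment. The mutant mice were Rb1R654W/F:Trp53F/F:PB-cre4, in which 1 Rb1 allele encodes the R654W protein and the other is conditional. The null mice were Rb1F/F:Trp53F/F:PB-Cre4, with both Rb1 alleles conditional. Both genotypes therefore share the conditional Trp53 alleles and the Cre transgene, which is driven by the probasin promoter and acts in prostate epithelium, so that stromal and immune cells keep their alleles. Each mouse was hybridised in red against the same green pool of prostate RNA from 3 wild-type mice, which counts as 1 control sample, and the dyes were not swapped. A log2 ratio below 0 means less signal in the mouse than in the pool. Any dye bias of a probe is part of its ratio to the pool, and between the genotypes it cancels only as far as it is the same on every array.

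Ms4a proteins pass the membrane several times and have both ends inside the cell. Most are made by blood cells, where they sit beside other receptors and tune their signals, and their genes lie side by side in 1 cluster. Ms4a1 is CD20 of B cells, and Ms4a2 is the beta chain of the high-affinity IgE receptor of mast cells and basophils. Ms4a4b was described in T cells, and Ms4a6d and Ms4a7 in macrophages. Of Ms4a5 little is known, and in humans its transcript is found mainly in testis. The tissue is bulk prostate, so fewer cells of a type and less RNA per cell cannot be told apart in any value below.

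Signal well above background was found in red at 26133 and 25539 probes in the mutant mice, against 22182 and 25046 in the null mice. Null mouse 1 was the dimmest, with a median background-subtracted red signal of 24.4 against 56.8 in null mouse 2 and 83.7 to 90.6 in the mutant mice. Across probes its log2 ratios correlated with those of the other mice at 0.156 to 0.233, while the other pairs reached 0.491 to 0.575. Probes are not independent replicates. Of 12 prostate luminal genes, 11 were measured, and all 11 were well above background in all 4 mice. The brightest Rb1 probe had log2 ratios of -0.65 and -0.24 in mutant mice 1 and 2, against 0.09 and -0.87 in null mice 1 and 2, so the genotypes overlapped. Whether that probe lies in the deleted part was not examined here, and cells without Cre keep Rb1. A probe was tested when its red signal was clearly above background in both mice of a genotype, or its green signal on all 4 arrays. Of the 17 Ms4a probes, 11 from 9 genes passed. Those 11 were the probes with signal, so counts over them describe the family and support no statement about it.

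Ms4a5 stood apart from its family. It was measured by a single probe, an unbroken 60-base stretch at chr19:10956768-10956827 on the minus strand of mm7, shown because the low ratio rests on this sequence alone.
Ms4a5: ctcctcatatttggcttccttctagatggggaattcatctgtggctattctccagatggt
The log2 ratio to the pool was -4.26 and -4.43 in mutant mice 1 and 2, against -3.68 and -4.24 in null mice 1 and 2. All 4 mice lay far below the pool, and both mutant mice lay below both null mice. The mean was -4.35 ± 0.12 in mutant mice and -3.96 ± 0.40 in null mice (SD, n = 2 each), or 20.3-fold and 15.6-fold below the pool. Over the 4 mice it was -4.15 ± 0.33 (SD), 17.8-fold below, and without null mouse 1 it was -4.31.

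The low ratio was made of a bright pool spot and a dim mouse spot, both measured above background on every array. Background-subtracted red signals of Ms4a5 were 231 and 215 in mutant mice 1 and 2, against 77.9 and 140 in null mice 1 and 2. The green pool signal at the same spots was 1857 and 2033 on the mutant arrays, and 1828 and 1790 on the null arrays. The pool channel therefore differed little between the arrays, and the mouse channel was lowest in null mouse 1, the dimmest array. With the scanner's own processed signals the log2 ratios were -4.92 and -4.93 in mutant mice, against -4.50 and -4.89 in null mice. These average 28.1-fold below the pool. The pool was made once from 3 animals, so the spread of Ms4a5 between wild-type mice is not known from these arrays.

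**Figure D1:**
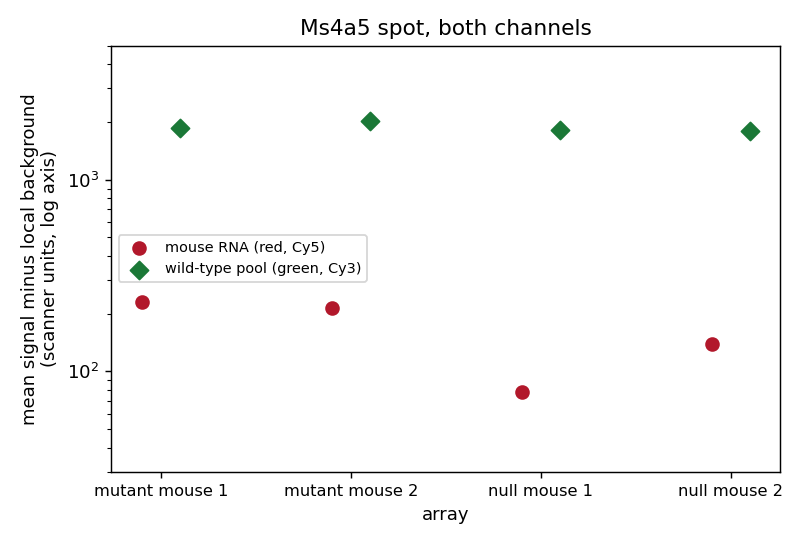
Background-subtracted signal of the Ms4a5 probe in scanner units on a log axis, for mutant mice 1 and 2 and then null mice 1 and 2. The red points are the mouse and the green points the wild-type pool on the same array: the mice lie between 77.9 and 231, and the pool between 1790 and 2033.

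By its mean over the 4 mice, Ms4a5 was the lowest of 24922 tested probes. Its place from the bottom was 3 and 1 in mutant mice 1 and 2, against 19 and 2 in null mice 1 and 2. The next lowest were Pate4, a small secreted protein of the male tract, at -4.13 and Svs4, a seminal vesicle secretory protein, at -4.12. They were followed by the secretory proteins Svs5 at -3.63 and Svs2 at -3.07, then by Naip5 at -2.97.

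The 5 genes whose 4 log2 ratios lay nearest to those of Ms4a5, by Euclidean distance over the 4 mice, were Naip5, Svs4, Bpgm, Ltf and Svs2. Naip5, a cytosolic sensor of bacterial flagellin, was nearest, at a distance of 2.36. Its log2 ratios were -3.03 and -3.24 in mutant mice, against -2.64 and -2.99 in null mice, a narrower range over the mice than that of Ms4a5. Svs4 lay at 2.54, with -4.14 and -2.50 in mutant mice, against -5.30 and -4.55 in null mice. Bpgm, which makes bisphosphoglycerate in red cells, lay at 3.53, with -3.27 and -1.36 in mutant mice, against -3.81 and -2.82 in null mice. Ltf, the secreted iron-binding lactotransferrin, lay at 3.71, with -2.97 and -1.97 in mutant mice, against -2.36 and -2.17 in null mice. Svs2, a protein of the copulatory plug, lay at 3.74, with -4.03 and -0.80 in mutant mice, against -3.99 and -3.45 in null mice. In Svs4, Bpgm, Ltf and Svs2 mutant mouse 2 was the highest of the 4, whereas in Ms4a5 and Naip5 it was the lowest.

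The seminal vesicle genes were given beside Ms4a5 as a whole list. Of 7, 4 were measured (Svs2, Svs4, Svs5 and Svs6), and their median log2 ratio was -4.08 and -0.61 in mutant mice 1 and 2, against -4.64 and -3.59 in null mice 1 and 2. Their summed red signal was 73460 and 524100 in mutant mice, against 8789 and 70180 in null mice. The summed pool signal was 370000 and 171700 on the arrays of mutant mice 1 and 2, against 361600 and 311100 on the null arrays. The pool channel was thus lowest on the array of mutant mouse 2, where the ratios were highest. Svs5, the brightest, had -4.69 and -0.10 in mutant mice, against -5.99 and -3.72 in null mice. By the list median, mutant mouse 2 was the highest of the 4 mice, though still below the pool. Its Ms4a5 ratio was the lowest of the 4. Of 12 testis germ cell genes, 4 were measured, and 7 had no probe above background in any mouse or in the pool, Ddx4, Dazl and Sycp3 among them. The median of the 4 measured was 0.21 and 0.06 in mutant mice, against 0.20 and -0.00 in null mice. Their 2 brightest, the sperm protein genes Prm1 and Acr, lay between -0.10 and 0.29. The part of either list in the Ms4a5 value was not tested.

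Ms4a1, which encodes CD20 of B cells, was the other member below the pool in all 4 mice. Its brighter probe, at chr19:10931002-10931061 of mm7, had log2 ratios of -0.26 and -0.54 in mutant mice 1 and 2, against -0.66 and -0.56 in null mice 1 and 2. The groups did not overlap, with the mutant mice higher. The signals were small: background-subtracted red was 49.9 and 10.2 in mutant mice, against 0.254 and 14.1 in null mice, beside a pool of 25.8 to 36.5. Only mutant mouse 1 was well above background, while the pool was so on all 4 arrays. The pool was therefore at least 1.45-fold brighter than the null mice. A fold written as "at least" sets the mean of the brighter side against the lowest signal well above background, or the dim probe's own signal where that is higher, per channel after normalisation, and it is open to dye bias. With processed signals the brighter probe had -1.07 and -3.47 in mutant mice, against -3.27 and -3.56 in null mice. Its mean over the 4 mice was -0.51 with normexp offset 50, -1.57 with offset 0 and -2.84 with processed signals. How far Ms4a1 lay below the pool is therefore not settled. The second Ms4a1 probe was not well above background in any channel, with -0.27 and -0.36 in mutant mice, against -0.05 and -0.27 in null mice.

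Other B cell genes were sparse. Of 15, 6 were measured, and 6 had no probe above background in any mouse or in the pool: Cd79a, Pax5, Blk, Fcer2a, Cd37 and Spib. Cd79b, part of the B cell receptor, had -0.35 and -0.63 in mutant mice, against -0.23 and -0.31 in null mice. The 2 brightest, the adaptor Blnk and the antibody heavy chain Ighm, had null mouse 1 lowest, Blnk at 0.11 and 0.17 in mutant mice against -0.33 and 0.01 in null mice. Ighm had 0.40 and 0.36 in mutant mice, against -1.39 and 0.51 in null mice.

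Ms4a2, the IgE receptor beta chain, was not well above background in any mouse or in the pool. Its log2 ratios of 0.07 and -0.07 in mutant mice, against 0.04 and 0.07 in null mice, give no level. Other mast cell genes were measured in the same RNA. Of 12, 11 passed, with medians of 0.37 and 0.78 in mutant mice 1 and 2, against -0.20 and 0.70 in null mice 1 and 2. In null mouse 1 only 5 of the 11 were well above background, against all 11 in each other mouse. Fcer1a, the IgE-binding chain of the same receptor, had 0.21 and 0.18 in mutant mice, against -0.04 and 0.53 in null mice. The brightest mast cell list members were Gata2 and Hdc, a transcription factor and the histamine-forming enzyme, both also made outside mast cells. Hdc had -0.77 and -0.74 in mutant mice, against 0.16 and 0.08 in null mice, a non-overlapping difference of -0.88 (limma, adjusted p = 0.985). Gata2 had 0.40 and 0.78 in mutant mice, against 0.13 and 0.24 in null mice (difference 0.41, limma adjusted p = 0.985).

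Of 14 genes of the IgE receptor pathway, 13 were measured, with medians of 0.21 and 0.15 in mutant mice, against -0.03 and 0.21 in null mice. In null mouse 1 only 9 of the 13 were well above background, against all 13 in each other mouse. None of the 13 passed the test between the genotypes. The 2 brightest were Grb2, a widely expressed adaptor, and Plcg2, a phospholipase of receptor signalling. Grb2 had 0.21 and -0.02 in mutant mice, against -0.39 and 0.03 in null mice. Plcg2 had -0.21 and 0.12 in mutant mice, against 0.48 and -0.01 in null mice.

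The Ms4a4 genes are close relatives, and their probes share sequence. Ms4a4b had 4 probes and Ms4a4c and Ms4a4d 2 each. The sequences shown are the pairs with the longest shared runs outside Ms4a7. In the last, capitals mark the 16 bases shared by Ms4a4b probe 1 and Ms4a4d. In the second, capitals mark the 15 bases shared by the 2 Ms4a4b probes. In the first, capitals mark both of these runs, which overlap.
Ms4a4b, probe 1: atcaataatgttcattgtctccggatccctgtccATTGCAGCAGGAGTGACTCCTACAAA
Ms4a4b, probe 2: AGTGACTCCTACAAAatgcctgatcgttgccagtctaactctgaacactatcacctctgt
Ms4a4d, probe 1: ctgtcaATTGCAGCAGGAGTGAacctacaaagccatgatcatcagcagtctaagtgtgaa
All 3 are on the plus strand of chromosome 19 in mm7. Ms4a4b probe 1 runs from 11134887 to 11137970 and probe 2 from 11137956 to 11139315, and Ms4a4d probe 1 from 11232973 to 11234949. Each span is longer than the 60 bases printed, so each probe crosses an intron. Apart from these and the Ms4a7 pair, which shares 35 bases, no pair of probes in the family shared more than 11 bases. How far transcripts of a near relative bind a probe was not tested.

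Ms4a4b, described in T cells, had 1 probe of 4 past the filter, with log2 ratios of 0.22 and 0.16 in mutant mice, against -0.05 and 0.34 in null mice. The other 3 probes were not well above background in any channel and lay between -0.14 and 0.26. Red signals of the measured probe were 66.3 and 62.0 in mutant mice, against 13.4 and 58.3 in null mice, and null mouse 1 was not well above background. Ms4a4c had 0.19 and 0.28 in mutant mice, against -0.19 and 0.81 in null mice, with 1 of its 2 probes measured. Ms4a4d had -0.58 in null mouse 1, against 0.54 in null mouse 2 and 0.08 and 0.43 in mutant mice 1 and 2. Its second probe gave 0.06 and 0.52 in mutant mice, against -0.18 and 0.60 in null mice. In both Ms4a4d probes null mouse 1 was not well above background, and null mouse 2 was the highest. For Ms4a4b, Ms4a4c and Ms4a4d alike, null mouse 1 was the lowest and null mouse 2 the highest. Null mouse 1 was not well above background for any of them, Ms4a4c included, so its place rests on signal near background.

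The medians of T and NK cell genes were ordered otherwise. Of 17, 14 were measured, with medians of 0.05 and -0.08 in mutant mice, against 0.00 and 0.19 in null mice, and null mouse 1 was the lowest in 4 of the 14. In null mouse 1 only 7 of the 14 were well above background, against 13 or 14 in the other mice. The brightest was Thy1, a surface glycoprotein, which had 0.08 and -0.14 in mutant mice, against -0.58 and 0.25 in null mice.

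The highest member was Ms4a6b, above the pool in all 4 mice and well above background in all 8 channels. It had log2 ratios of 0.58 and 0.89 in mutant mice 1 and 2, against 0.35 and 1.22 in null mice 1 and 2. Its red signals were 346 and 479 in mutant mice, against 88.6 and 477 in null mice, beside 58.8 to 73.0 in the pool. The mean was 0.74 ± 0.21 in mutant mice and 0.79 ± 0.61 in null mice (SD, n = 2 each), and the null mice enclosed both mutant mice. The first place depends on the processing. Over the 4 mice the mean of Ms4a6d was higher with offset 0, at 1.29 against 1.00 for Ms4a6b. It was also higher with processed signals, at 1.63 against 1.08.

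Ms4a6c and Ms4a6d were never well above background in the pool, so their ratios are limited by the pool channel. Ms4a6d, a macrophage protein, had 0.23 and 0.59 in mutant mice, against 0.29 and 0.72 in null mice. Its red signal was 58.4 and 73.8 in mutant mice, against 23.2 and 88.9 in null mice, against 5.76 to 10.8 in the pool. As a mean over both, the mutant mice were at least 1.28-fold brighter than the pool. That bound depends on the normalisation: the Ms4a6d mutant mean was 0.41 with loess and 0.20 with median centring. Ms4a6c had 0.02 and 0.28 in mutant mice, against 0.02 and 0.05 in null mice. As a mean, the mutant mice were at least 1.09-fold brighter than the pool, which rests on mutant mouse 2. With median centring in place of loess the mutant mean log2 ratio was -0.18, below the pool.

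Ms4a7, a macrophage gene, was measured by 2 overlapping probes. The brighter gave 0.60 and 0.40 in mutant mice, against -0.19 and 1.13 in null mice. The other gave 0.40 and 0.43 in mutant mice, against 0.02 and 0.98 in null mice. Red signals of the brighter probe were 289 and 246 in mutant mice, against 27.3 and 338 in null mice, with 44.8 to 54.4 in the pool. The 2 probes share bases and are no independent measurements of the gene. Both place null mouse 2 highest and null mouse 1 lowest.

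**Figure D2:**
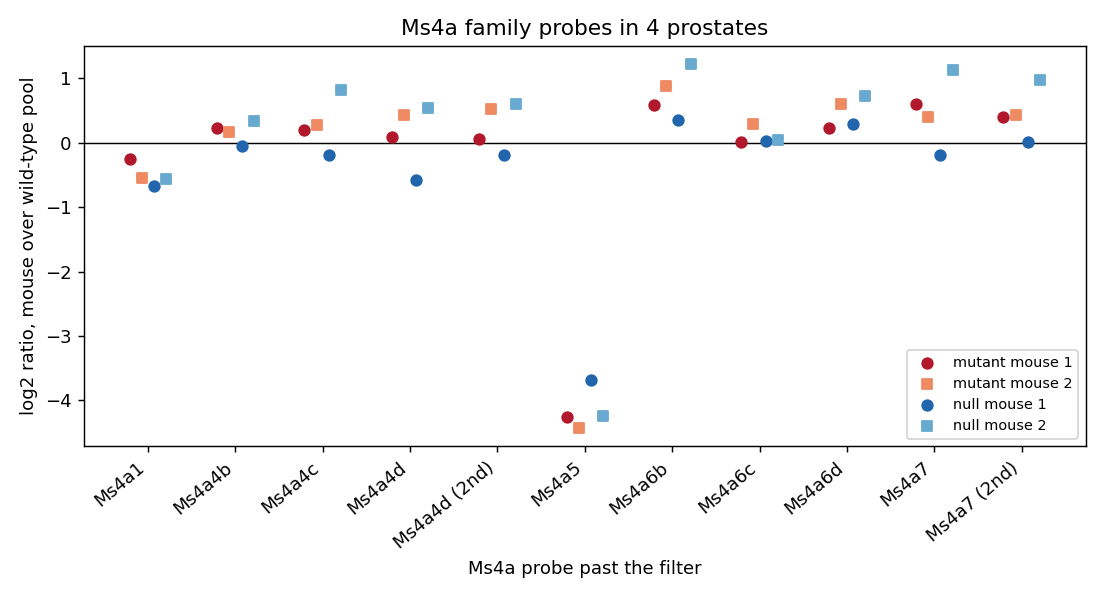
Log2 ratio of mouse to pool for the 11 Ms4a probes past the filter, with a symbol per mouse (mutant mice left, null mice right; a second probe of a gene is named 2nd). Ms4a5 lies between -4.43 and -3.68, and the others lie between -0.66 and 1.22.

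Over the 11 probes past the filter, the median log2 ratio was 0.19 and 0.40 in mutant mice 1 and 2, against -0.18 and 0.60 in null mice 1 and 2. Over all genes tested it was 0.03 and 0.02 in mutant mice, against -0.01 and 0.03 in null mice. All 4 mice were above the pool for 4 of the 11 probes (Ms4a6b, Ms4a6c, Ms4a6d and the second Ms4a7 probe), against 16.6% of all tested probes. Ms4a6c and Ms4a6d passed the filter only through the mouse channel, so this count is no evidence about the family. All 4 mice were below the pool for 2 (Ms4a5 and Ms4a1), against 14.8%. Null mouse 1 was the lowest of the 4 mice for 8 of the 11 probes, against 37.6% of all tested probes, and the highest for 1 (Ms4a5), against 31.3%. Null mouse 2 was the highest for 8 of the 11, against 20.6%. The 8 probes of the first count belong to 6 genes, and probes of a gene are not independent.

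Macrophage genes, like the Ms4a probes, had the lowest median in null mouse 1 and the highest in null mouse 2. The general white cell and IgE receptor pathway lists had the same order, so it is not particular to macrophage genes. The medians over all genes tested had it too, within -0.01 to 0.03. All 20 genes of the macrophage list were measured, with medians of 0.65 and 0.47 in mutant mice 1 and 2, against -0.18 and 1.21 in null mice 1 and 2. Null mouse 1 was the lowest in 19 of the 20. Lyz2, which encodes lysozyme, had 1.58 and 1.25 in mutant mice, against -1.22 and 1.86 in null mice. Ctss, a protease of antigen-presenting cells, had 1.09 and 0.86 in mutant mice, against 0.45 and 1.97 in null mice. The summed red signal of the list was 43570 and 34140 in mutant mice, against 3304 and 40710 in null mice, with 4958 to 5557 in the pool channel. All 20 were well above background in the mutant mice and null mouse 2, and 18 in null mouse 1. Null mouse 1 is also the dimmest array at the median probe, and the parts of macrophage genes and of array brightness in the Ms4a values were not tested.

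Genes made by all white cells gave a smaller spread. All 10 were measured, with medians of 0.26 and 0.10 in mutant mice, against -0.28 and 0.35 in null mice, and null mouse 1 was the lowest in 8. In null mouse 1 only 6 of the 10 were well above background, against all 10 in each other mouse. The 2 brightest were Cd52, a small surface glycoprotein, and Lcp1, an actin-bundling protein. Cd52 had -0.61 and 0.66 in mutant mice, against -0.37 and -0.01 in null mice. Lcp1 had -0.25 and -0.17 in mutant mice, against -0.55 and -0.33 in null mice.

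Epithelial and muscle genes of the gland put the mice in other orders. The 11 measured prostate luminal genes had medians of 0.27 and 0.04 in mutant mice, against -0.17 and -0.21 in null mice. Their brightest, the secreted transglutaminase Tgm4, had 0.42 and 0.02 in mutant mice, against -0.03 and -0.19 in null mice. Krt18, a keratin of luminal cells, had 0.27 and -0.07 in mutant mice, against 0.85 and -0.11 in null mice. The 8 smooth muscle genes had medians of -0.21 and -0.52 in mutant mice, against 0.17 and -0.14 in null mice. Cnn1 had -0.09 and -0.54 in mutant mice, against 0.52 and 0.18 in null mice. Tagln had -0.02 and -0.64 in mutant mice, against 0.09 and -0.17 in null mice.

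**Figure D3:**
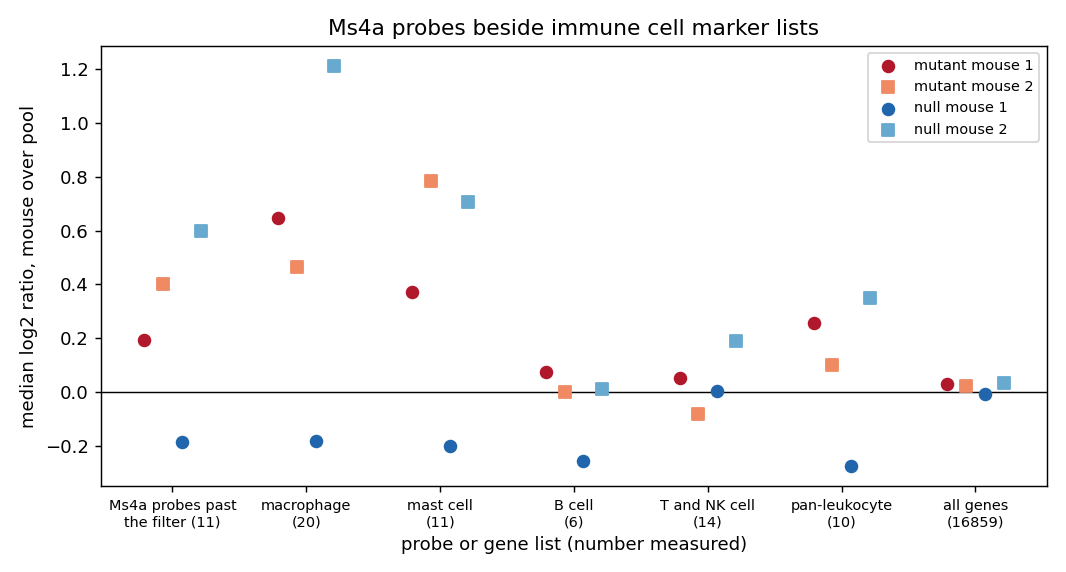
Median log2 ratio of mouse to pool for the Ms4a probes past the filter, 5 white cell marker lists and all genes tested, with a symbol per mouse (mutant mice left, null mice right). The Ms4a and macrophage medians are lowest in null mouse 1, at -0.18 each, and highest in null mouse 2, at 0.60 and 1.21.

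Between the genotypes, 0 of the 11 Ms4a probes passed an adjusted p of 0.05 in limma with Benjamini-Hochberg adjustment over 24922 probes, against 0.0% of all tested probes. At an unadjusted p under 0.05 the count was 0 of 11, against 2.18%. With all 4 mice, differences, as mutant minus null on the log2 scale, ran from -0.39 to 0.28 with a median of 0.03, against 0.01 over all genes tested. Leaving out a null mouse could turn a difference. That of the brighter Ms4a7 probe was -0.63 without null mouse 1 and 0.69 without null mouse 2. With all 4 mice the limma adjusted p lay between 0.985 and 0.998. The 2 genotypes lay apart, with no overlap, for 2 of the 11 (Ms4a5 and Ms4a1), against 30.5% of all tested probes. Mutant mice were higher in 1 of them, against 16.8%, and lower in 1, against 13.7%.

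The Ms4a5 difference was -0.39 ± 0.25 (SE), with a 95% interval of -1.03 to 0.26 (limma fit, unadjusted p = 0.187, adjusted p = 0.985). Leaving out a null mouse moved it to -0.10 (without null mouse 1) or -0.67 (without null mouse 2), and centring each array on its median in place of loess turned it to 0.18. The Ms4a1 difference was 0.21 ± 0.20 (SE), with an interval of -0.29 to 0.72 (limma, adjusted p = 0.985). It rests on signals of which 3 of 4 were not well above background, and without mutant mouse 1 it was 0.07. It was 0.92 with normexp offset 0, 1.15 with the scanner's processed signals and 0.002 with median centring.

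The other members had wide intervals. For Ms4a6b the difference was -0.05 (95% interval -0.92 to 0.81), for Ms4a7 0.03 (-1.14 to 1.20), and for Ms4a4c -0.08. For Ms4a4d it was 0.28 (-0.77 to 1.33), and 1.48 with normexp offset 0 and 1.45 with processed signals, both beyond that interval. For Ms4a4b it was 0.05 (-0.49 to 0.60). The remaining differences were 0.12 for Ms4a6c, -0.10 for Ms4a6d, 0.08 for the second Ms4a4d probe (1.27 with processed signals) and -0.08 for the second Ms4a7 probe. These intervals span changes of over 1 log2 unit in either direction for Ms4a7, since the 2 null mice lay far apart. They do not show that the genotypes are alike. Without null mouse 1, the array that stands apart, the differences were -0.63 for Ms4a7, -0.58 for Ms4a4c, -0.49 for Ms4a6b, -0.29 for Ms4a4d and -0.14 for Ms4a4b. No marker gene of the 10 lists passed the test in either direction. The median difference was 0.09 over the macrophage genes, -0.04 over B cell genes, -0.04 over T and NK cell genes, 0.03 over mast cell genes and -0.02 over the IgE receptor pathway. It was 0.07 over general white cell genes, 0.33 over prostate luminal genes, 1.46 over seminal vesicle genes, 0.05 over testis germ cell genes and -0.38 over smooth muscle genes. Without null mouse 1 the macrophage median was -0.59. The seminal vesicle median was -0.07 without mutant mouse 2 and 2.67 without mutant mouse 1.

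The probes of the 10 genes span 366.5 kb of chromosome 19 in mm7, from Ms4a1 to Ms4a2. Further Ms4a genes lie in and beside that span, among them Ms4a3, Ms4a8a, Ms4a10 and Ms4a12, whose probes were not well above background in any channel. The Ms4a5 probe lies 25.8 kb from that of Ms4a1, at a mean log2 ratio of -0.51, and 44.9 kb from that of Ms4a7, at 0.49 and 0.46. Within 500 kb of the ends of that span, 20 further probes from 15 genes passed the filter. Among them is a probe named Ms4a11 in the file, which RefSeq assigns to the member Ms4a6d. The mean log2 ratios of the 20 ran from -0.57 for Stx3, a membrane fusion protein, to 0.56 for AW112010, with a median of 0.01. All 4 mice were below the pool for 6 of the 20, several of them Stx3 probes, against 14.8% of all tested probes. They were above it for 4, the Ms4a11 probe among them, against 16.6%. No other probe past the filter in the window came near the ratio of Ms4a5.

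**Figure D4:**
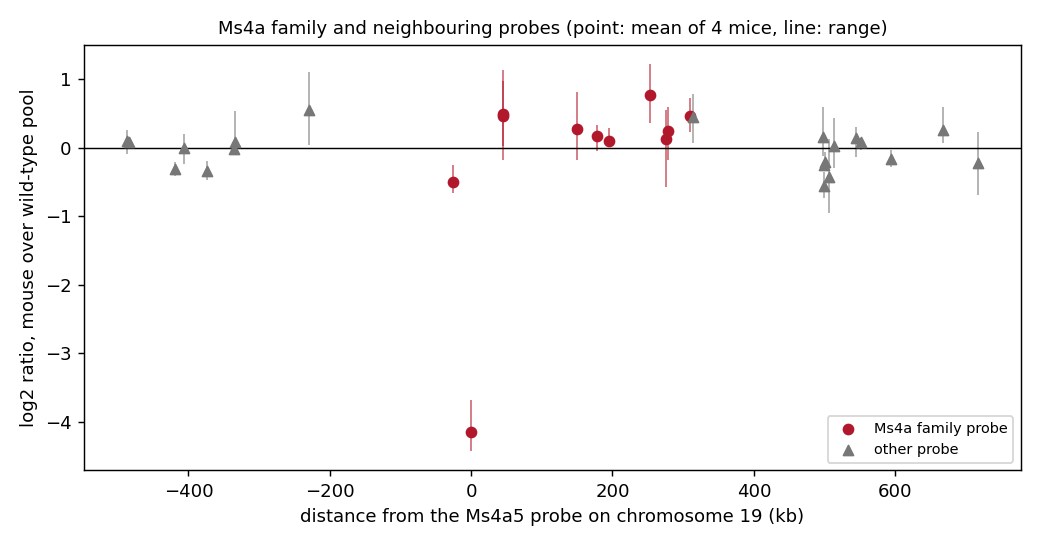
Log2 ratio of mouse to pool for probes past the filter, by distance in kb from the Ms4a5 probe along chromosome 19, with points for the mean of the 4 mice and lines for their range (circles, Ms4a family; triangles, other probes). The means of the other probes, the Ms4a11 probe among them, lie between -0.57 and 0.56, and Ms4a5 at -4.15.

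Promoters were read from RefSeq on GRCm38.p6, for which 8 of the 10 genes had an entry, with 9 promoters, each a window of 300 bases around the start. They are given as sequence only, because the members lie beside each other. Their part in any ratio was not tested. The longest run common to promoters of different members was 48 bases, in Ms4a6c (chr19:11469319-11469366, plus strand) and Ms4a6b (chr19:11518441-11518488, plus strand). It starts 49 bases before the Ms4a6c start and 118 before that of Ms4a6b.
Ms4a6c and Ms4a6b, shared run: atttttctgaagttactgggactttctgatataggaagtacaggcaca
The next was 20 bases, in Ms4a4c (chr19:11407623-11407642, plus strand) and Ms4a4b (chr19:11443517-11443536, plus strand).
Ms4a4c and Ms4a4b, shared run: ttctgcctcttagtcagtgg
Over the 36 promoter pairs the median longest run was 8 bases, and no other pair shared more than 13. The mean log2 ratio over the 4 mice was 0.76 for Ms4a6b and 0.09 for Ms4a6c, whose pool signal was not well above background. In the other pair it was 0.28 for Ms4a4c and 0.17 for Ms4a4b.

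Short motifs were searched on both strands of the same windows. The core GAGGAA of the myeloid factor PU.1 was in promoters of Ms4a4b, Ms4a4c and Ms4a7, and in 28.3% of all 32851 promoters. Its longer form GAGGAAGT, which contains the core, was in none of the 9, and in 3.20% of all. The octamer ATGCAAAT was in the Ms4a4c promoter, and in 1.74% of all. The GATA motif AGATAA was in the Ms4a2 promoter, and in 11.2% of all. A match is only a run of letters in the window, and Ms4a5 held none of the 4.

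The authors' deposited table gave group means as a linear ratio of mouse to pool, with SEM, in 9 rows for 7 members. For Ms4a5 the authors' deposited table had 0.0296 ± 0.000544 in mutant mice and 0.0346 ± 0.00321 in null mice. For Ms4a1 the authors' deposited table had 0.239 ± 0.153 in mutant mice and 0.0786 ± 0.00436 in null mice, the widest gap among these rows, at 3.04-fold. The mouse signals of Ms4a1 behind it were mostly not well above background. With loess and offset 50, as used here, the mean log2 ratios of Ms4a1 amount to 0.758 of the pool in mutant mice and 0.654 in null mice. The authors' ratios are therefore not on the scale used here, and the sizes cannot be set side by side. For Ms4a7 the rows of the authors' deposited table had group means of 1.56 ± 0.051 and 1.63 ± 0.201 in mutant mice. In null mice the same rows of the authors' deposited table had 2.06 ± 1.31 and 1.87 ± 1.25. For Ms4a4d the rows of the authors' deposited table had group means of 1.32 ± 0.449 and 1.44 ± 0.440 in mutant mice. In null mice the same rows of the authors' deposited table had 0.965 ± 0.830 and 1.13 ± 1.03. For Ms4a4c the authors' deposited table had 1.48 ± 0.110 in mutant mice and 1.95 ± 1.65 in null mice. For Ms4a4b the authors' deposited table gave 1.20 ± 0.0626 in mutant mice and 1.42 ± 0.723 in null mice. For Ms4a6c the authors' deposited table gave 1.59 ± 0.452 in mutant mice and 1.28 ± 0.1035 in null mice.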

How the data were processed

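Spot intensity (mean signals, background medians, processed signals) came from the deposited scanner files, in build mm7 per the file headers. Feature Extraction is version 9.5.1.1 per the file headers and 8.5 per the submitters' processing notes. The deposited log10 ratio was not used here. The authors' deposited table holds mean ratios per genotype, with no value per array. Members and lists were chosen with earlier results of these data known. Signals were corrected with normexp (offset 50) and loess in limma (version 3.58.1, with R 4.3.3). Controls carried weight 0, spots with an outlier flag from the scanner software were dropped, and saturation was not seen. The 43379 remaining spots of an array stand for 41174 probes, of which 24925 passed the filter and 24922 were tested. Marker lists used the brightest probe of each of 16859 genes. Names came from RefSeq accessions for 22951 probes, current symbols for 6659 and older symbols for 3109, and 8455 kept the file's name.

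The 4 log2 ratios were fitted with lmFit and eBayes with a term per genotype, and p-values were adjusted by Benjamini-Hochberg over all tested probes. The fit was tested on simulated data. The 4 arrays lie on 1 slide, each genotype on neighbouring positions, so the effect of position cannot be told apart from that of genotype. Their number limits the precision. Named were all members, the 5 genes nearest to Ms4a5, the extremes of the neighbourhood and the 2 brightest genes of each list, of which some are not reported here. Cd79b, Fcer1a and the genes next lowest after Ms4a5 were chosen after their values were seen. Replicate numbers did not pair the mice (correlation of deviations 0.00358).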

Additional observations from a re-analysis of the deposited data

Results flagged for a closer look

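A further probe signal lies outside the rule for the family. A probe named Ms4a11 in the file, which RefSeq now assigns to Ms4a6d, gave log2 ratios of 0.36 and 0.55 in mutant mice 1 and 2, against 0.07 and 0.79 in null mice 1 and 2, with a mean of 0.44. The mice were well above background on all 4 arrays and the pool on 2. It is listed because it is signal of a member under another name, and above it entered only among the neighbouring probes. The Ms4a6d probe inside the rule averaged 0.46.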

How the results depend on the processing

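None of the 11 Ms4a probes was called between the genotypes under any alternative, with limma adjusted p from 0.232 to 1.0 for the members and from 0.26 to 1.0 for Ms4a5. Without a single mouse, calls over all probes ran from 0 to 8 between the genotypes (8 without null mouse 2), from 0 to 2 for mutant mice against the pool, and from 0 to 377 for null mice against the pool (377 without null mouse 2). Unadjusted p was under 0.05 for 544 probes between the genotypes, for 957 with median centring, and for 154 (without mutant mouse 1) to 4118 (without null mouse 2) on leaving out a mouse. Against the pool, 2 probes were called rather than 0 with normexp offset 0 and with the stricter filter (both channels above background on all arrays) for each genotype, and with 1 probe per gene for mutant mice. Ms4a5, chosen for its low ratio to the pool, is among these calls, so they are no evidence about it. The stricter filter left Ms4a5, Ms4a6b and both Ms4a7 probes. The Ms4a5 ratio was -4.63 with offset 0, -4.81 with processed signals, -3.63 with median centring and -4.31 to -4.06 without a single mouse. Median centring moved the median difference of all probes to 0.38, against 0.02 with loess, and turned Ms4a4b to -0.087, Ms4a6c to -0.16, Ms4a6b to 0.27 and Ms4a5 to 0.18. Ms4a4c turned to 0.0021 with offset 0 and 0.48 with processed signals. The cause was not tested. Leaving out each mouse gave differences of -0.14 to 0.25 for Ms4a4b, -0.31 to 0.12 for Ms4a6d, -0.018 to 0.25 for Ms4a6c, -0.63 to 0.69 for Ms4a7 (second probe -0.56 to 0.40), -0.29 to 0.84 for Ms4a4d (second probe -0.31 to 0.47), -0.49 to 0.38 for Ms4a6b, -0.58 to 0.42 for Ms4a4c, -0.67 to -0.10 for Ms4a5 and 0.07 to 0.36 for Ms4a1. List medians ran from -0.59 to 0.65 for macrophage genes, -0.073 to 0.14 for B cell, -0.15 to 0.22 for IgE receptor pathway, -0.21 to 0.47 for general white cell, 0.22 to 0.50 for prostate luminal, -0.41 to 0.46 for mast cell, -0.15 to 0.03 for T and NK cell, -0.07 to 2.67 for seminal vesicle, -0.05 to 0.13 for testis germ cell and -0.59 to -0.19 for smooth muscle genes. These fits assume that a lone mouse varies like the other genotype. With the replicate number as a block, 0 probes were called, and it changed no call. Signal over background limits Ms4a1, Ms4a2, Ms4a4b, Ms4a4c, Ms4a4d, Ms4a6c and Ms4a6d, each with a channel not well above background on some array.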
